A study of Mus musculus with 24 samples.

Results

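The genes described here encode the nuclear subunits of the mitochondrial respiratory chain and of ATP synthase, followed across 6 organs of mice that lack Nur77. Members were chosen by name, as the genes whose symbol in the platform annotation starts with Nduf, Uqcr, Atp5, Cox4, Cox5, Cox6, Cox7 or Cox8, together with Sdha, Sdhb, Sdhc, Sdhd and Cyc1. This gave 79 genes on 109 probes, of 9834 genes with 1 symbol and 20205 probes on the array. Complex I has 31 of them, complex II has 4, complex III has 8, complex IV has 16 and complex V, the ATP synthase, has 15. Another 5 (Ndufaf1, Ndufaf3, Ndufaf5, Ndufaf6 and Ndufaf7) code for assembly factors of complex I and were counted apart.

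Total RNA of lung, spleen, testis, skeletal muscle, heart and brown adipose tissue from Nur77-/- mice was compared with the same organs of Nur77+/+ mice on 2-colour arrays. Per the labels, RNA of 7 mutant mice was set as a pool against that of 7 wild-type mice, while the labelling protocol names a control pool of 6 animals. Each organ has 4 arrays, with the mutant pool in Cy5 on replicates 1 and 2 and in Cy3 on replicates 3 and 4. The 4 arrays repeat 1 comparison between 2 pools, so no p-value here measures the spread between animals. The p-values measure the spread between hybridisations, except those averaged over the 6 organs, which measure the spread between organ means. The wild-type channel of heart replicate 2 is labelled skeletal muscle. For heart, the median over all members, the counts below 0 and past the threshold, and Atp5h are also given without that array. The other heart estimates and the medians by complex include it. No source used here gives the strain, age or feeding state of the mice.

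Each value is a log2 ratio of mutant over wild type minus the median of its array, so 0 means that a gene lay at the middle of all probes of that array. The log base and the direction were inferred and are not stated. Nr4a1, the gene of Nur77, lay below the array median on 21 of the 22 arrays that measured it, in both dye orientations. Its limma estimate was -1.07 ± 0.13 (SE, 4 arrays) in brown adipose tissue, with an adjusted p of 0.000873, and -1.40 ± 0.33 (SE, 3 arrays) in skeletal muscle, with an adjusted p of 0.0304. The muscle call was lost without replicate 1 (adjusted p = 0.628) or replicate 2 (adjusted p = 0.181) and with the replicate block in place of the dye term (adjusted p = 0.0656), and the brown adipose call without its replicate 2 (adjusted p = 0.071). Both Nr4a1 calls were also lost with organs fitted alone and with values above 12 in size kept. The brown adipose call was lost with 1 spread for all arrays. Of the 2 calls, 1 was lost with a dye term for each organ and 1 with arrays scaled to an equal spread. Nr4a1 was estimated at -0.69 in heart, -0.71 in spleen, -0.36 in lung and -0.16 in testis, none past the threshold. No source used here says where its probe lies relative to the deleted part of the gene. Because a ratio holds no level, the labelled organs could not be checked against the abundance of their markers.

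The respiratory chain passes electrons from NADH (complex I) and succinate (complex II) through ubiquinone to complex III, by cytochrome c to complex IV and on to oxygen, and the proton gradient built on the way drives ATP synthase. Most subunits are encoded in the nucleus and their genes are often transcribed together, with nuclear respiratory factors, GABP, the estrogen-related receptors and the coactivator PGC-1alpha among the known regulators. Nur77 binds DNA as a monomer at an element that extends the AAGGTCA core which estrogen-related receptors also bind. Heart, skeletal muscle and brown fat are known for dense mitochondria. Subunits encoded by mitochondrial DNA were not analysed here.

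A pair of promoters is shown because their genes, Atp5l and Atp5g3, had the lowest estimates of complex V in skeletal muscle and because both hold the AAGGTCA core. Each run is RefSeq sequence of GRCm38.p6 on the minus strand, from 250 bases before to 50 after the start that the promoter table uses for the gene. Capitals mark the core, which reads TGACCTT on the printed strand, and in Atp5g3 they mark the longer element TCAAGGTCA, which reads TGACCTTGA. Atp5l lies at chr9:44920693-44920992 and Atp5g3 at chr2:73911277-73911576. The RefSeq gene record of Atp5g3 reaches further upstream, to base 73912464, so its window lies at a start inside that record.
Atp5l: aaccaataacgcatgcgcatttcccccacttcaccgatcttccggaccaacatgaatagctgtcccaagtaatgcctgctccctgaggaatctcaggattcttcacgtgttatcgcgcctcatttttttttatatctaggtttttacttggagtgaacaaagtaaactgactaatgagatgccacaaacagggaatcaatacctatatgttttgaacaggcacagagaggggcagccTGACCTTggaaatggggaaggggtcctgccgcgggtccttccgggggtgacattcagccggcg
Atp5g3: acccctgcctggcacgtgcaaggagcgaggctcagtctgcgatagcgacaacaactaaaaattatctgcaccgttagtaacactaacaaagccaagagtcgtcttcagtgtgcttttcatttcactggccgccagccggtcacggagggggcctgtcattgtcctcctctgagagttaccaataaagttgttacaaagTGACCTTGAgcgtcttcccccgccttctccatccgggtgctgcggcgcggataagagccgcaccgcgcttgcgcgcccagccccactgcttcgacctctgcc

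Of the 79 members, 65 are in the promoter table, which holds 27025 genes, and 5 motifs were searched on both strands. The AAGGTCA core was in 7 members (10.8%, against 5.38% of all genes), which were Atp5e, Atp5g3, Atp5k and Atp5l of complex V, Ndufb2 and Ndufb4 of complex I and Sdhd of complex II. The longer element TCAAGGTCA, which contains the core and is known from estrogen-related receptors, was in 2 members (3.08%, against 0.466%), Atp5g3 and Sdhd. AAAGGTCA, the Nur77 element, which also contains the core, was in 0 of the 65 and in 1.7% of all genes. CGCATGCG, the middle of the palindrome that nuclear respiratory factor 1 binds, was in 8 members (12.3%, against 2.07%), Atp5l among them, and CCGGAAG, bound by ETS factors such as GABP, was in 17 (26.2%, against 9.93%). These matches describe letters in this window and say nothing of binding.

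No member passed an adjusted p of 0.05 in limma in any organ, over 414 tests of a member in an organ. At an unadjusted p under 0.05 there were 27. In brown adipose tissue 0 of 76 tested members passed, and 0.0328% of all rows did. In heart the count was 0 of 75 (background 0.0289%), in testis 0 of 71 (0.0442%), in skeletal muscle 0 of 69 (2.35%), in lung 0 of 62 (0.113%) and in spleen 0 of 61 (0.214%). The unadjusted count was highest in skeletal muscle, with 9 of 69 members or 13.0%, against 11.7% of all rows. It was 6 of 71 in testis (background 6.61%), 5 of 62 in lung (6.41%), 4 of 61 in spleen (6.76%), 2 of 75 in heart (7.58%) and 1 of 76 in brown adipose tissue (5.31%). Members named below at an unadjusted p under 0.05 go beyond the naming rule and were chosen after their values were seen.

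The precision behind these counts differed by organ. The median 95% interval of a member reached 0.39 to either side in brown adipose tissue, 0.45 in heart, 0.54 in testis, 0.70 in lung, 0.96 in skeletal muscle and 1.01 in spleen, on the log2 scale. The interval lay wholly within 1 log2 unit of 0, for 67 of 76 members in brown adipose tissue and 59 of 75 in heart. In testis this held for 48 of 71 members and in lung for 34 of 62, but only for 12 of 61 in spleen and 11 of 69 in skeletal muscle. The interquartile range of the members was narrower than that of all rows on 24 of the 24 arrays. All rows include single probes without a symbol, while 23 members average several probes.

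Although single members did not pass, their estimates lay to one side of the array median in several organs. In heart 64 of 75 members were below 0 (85.3%, against 51.1% of all rows) with a median of -0.15, and in skeletal muscle 51 of 69 were (73.9%, against 48.8%) with a median of -0.35. In spleen 45 of 61 were below 0 (73.8%, against 50.6% of all rows, median -0.30). In lung 42 of 62 were (67.7%, against 50.1%, median -0.13). In brown adipose tissue 48 of 76 members lay below 0 (63.2%, against 50.2%, median -0.05). In testis 24 of 71 did (33.8%, against 50.5%, median 0.07). Without centring 60 of 69 members lay below 0 in skeletal muscle and 56 of 76 in brown adipose tissue. The testis split changed with several choices, to 35 of 71 below 0 with arrays scaled to an equal spread or with a dye term for each organ, 34 of 71 with 1 spread for all arrays, 39 of 71 without a dye term, 37 of 69 without replicate 3 and 34 of 73 without replicate 4. Without centring, the median of all rows in skeletal muscle was itself -0.24, against 0.02 with centring. In brown adipose tissue it was -0.07, against -0.0012. The share of all rows below 0 without centring is not given here. These are counts over genes of shared libraries and carry no test.

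**Figure D1:**
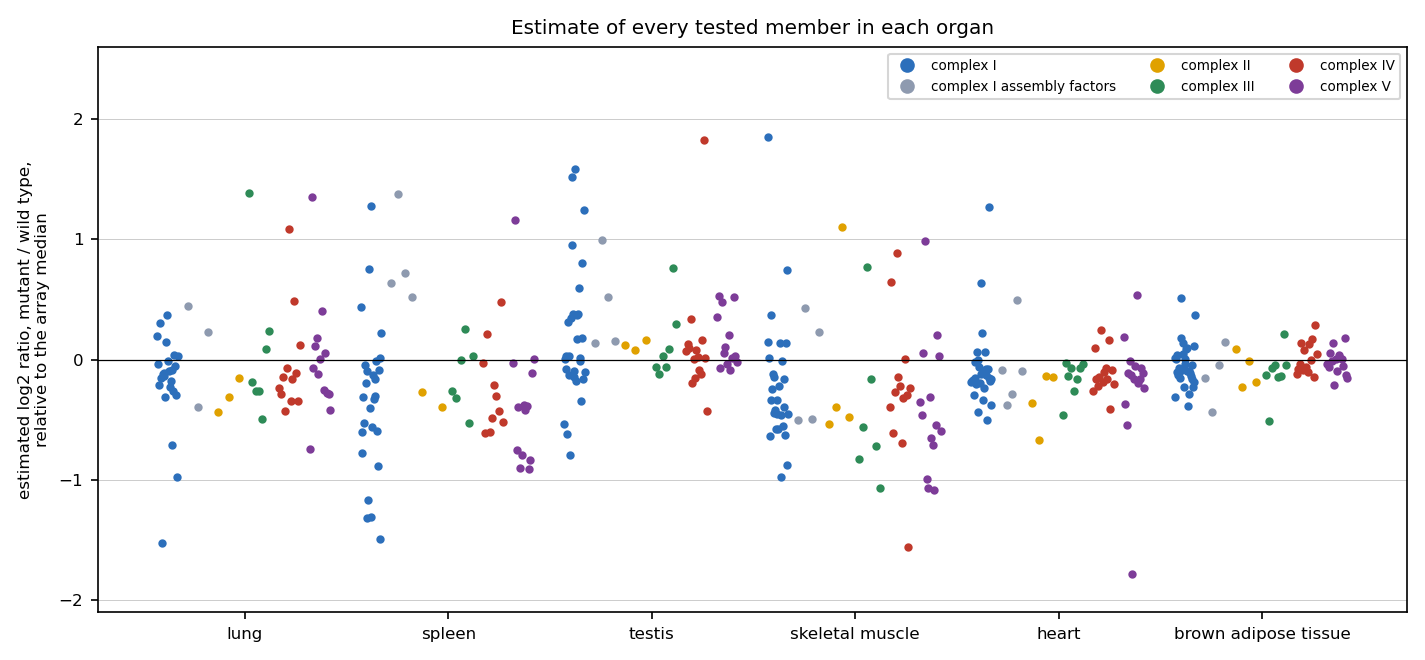
Each point is the limma estimate of 1 tested member in 1 organ, as log2 ratio of mutant over wild type relative to the array median, coloured by complex. The points gather below 0 in heart (64 of 75) and skeletal muscle (51 of 69), and stay closest to 0 in brown adipose tissue.

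The 4 arrays of an organ did not share this evenly. In skeletal muscle the median over all members was -0.11 and 0.06 on replicates 1 and 2, with the mutant in Cy5, and -0.43 and -1.33 on replicates 3 and 4, with the mutant in Cy3. In heart the same medians were -0.03 and 0.09 with the mutant in Cy5 and -0.22 and -0.21 with it in Cy3. Relative to the array median, the low medians in both organs were thus on the Cy3 arrays. Replicate 4 of skeletal muscle stood lowest of all 24. In muscle this split depends on the centring, since replicates 1 to 4 as deposited had medians of -0.435, -0.777, -0.008 and 0.672. The heart arrays had deposited medians of -0.015, -0.067, 0.032 and 0.011. In spleen the medians were -0.25, 0.16, -0.01 and -0.78, again lowest on replicate 4. In lung, testis and brown adipose tissue no array median of the members was farther than 0.14 from 0.

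Counting members by orientation, again relative to the array median, shows the same. In heart 50 of 75 members were below the array median on both Cy3 arrays (66.7%, against 29.2% of all rows), but 10 of 70 on both Cy5 arrays (14.3%, against 27.8%). In skeletal muscle 41 of 62 were below on both Cy3 arrays (66.1%, against 26.9%) and 26 of 66 on both Cy5 arrays (39.4%, against 30.6%). Without heart replicate 2, the array with the skeletal muscle label, the heart median was -0.18 and 60 of 74 members were below 0, with 0 past the threshold. Without replicate 4 the skeletal muscle median was -0.26 and 47 of 72 members were below 0.

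**Figure D2:**
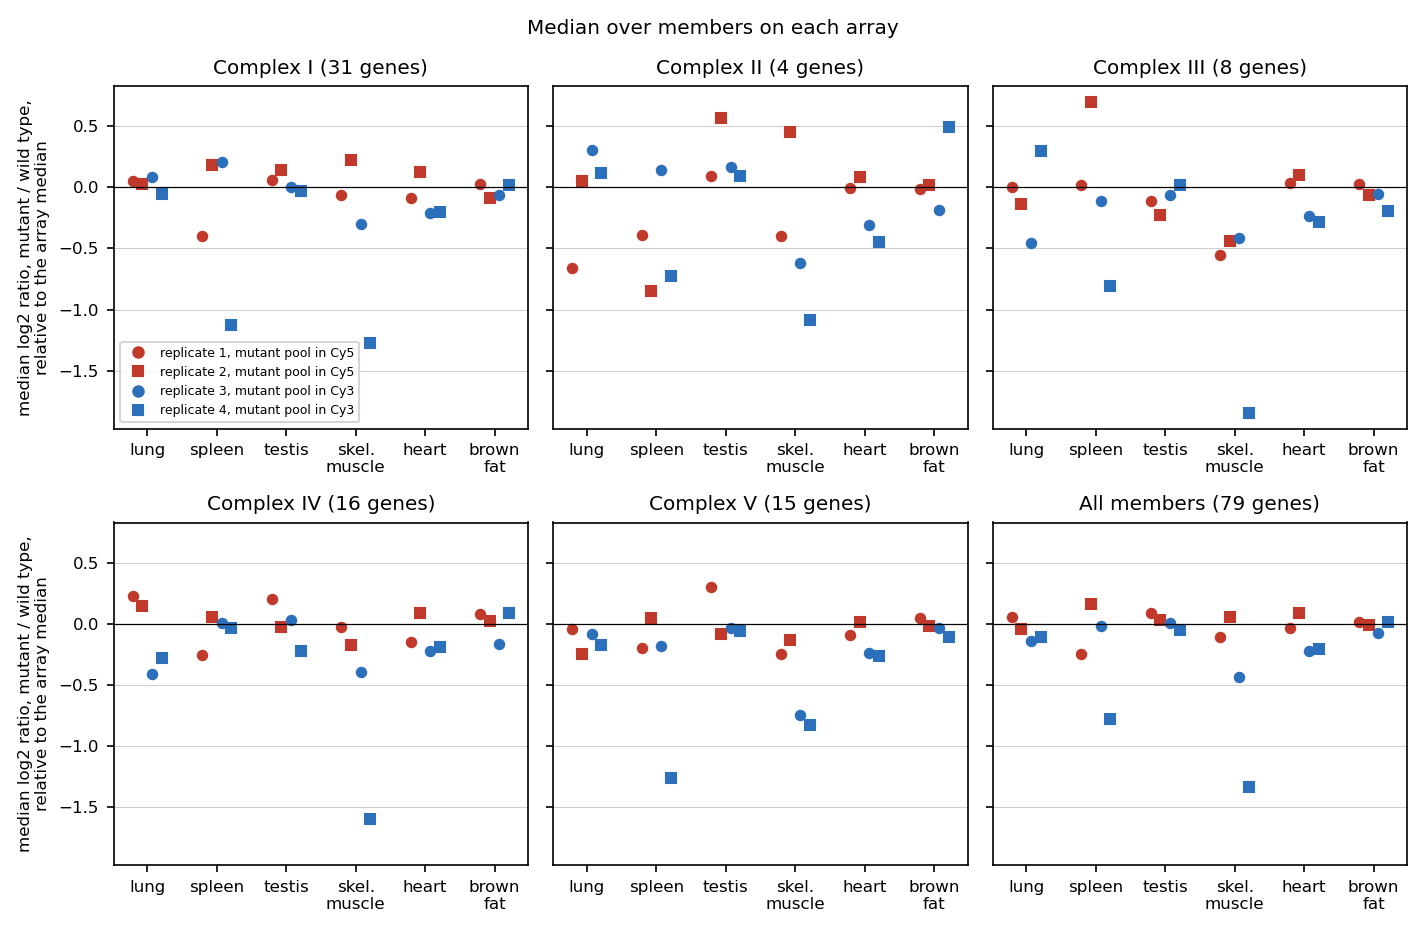
Each point is the median over the measured members of a complex on 1 array, as log2 ratio of mutant over wild type relative to the array median, with red for the mutant pool in Cy5 and blue for Cy3. The blue points of heart lie below the red ones in every panel, and replicate 4 of skeletal muscle is the lowest over all members at -1.33.

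Some members lay on the same side of the array median on all 4 arrays of an organ, and so in both orientations. In skeletal muscle 13 of 58 fully measured members were below the array median on every array (22.4%, against 6.06% of all rows) and 0 were above it (all rows 10.1%). In heart 9 of 69 were below on every array (13.0%, against 7.13%) and 0 were above (6.7%). Lung had 5 of 54 below (background 6.78%) and 2 above (7.32%), spleen 4 of 40 below (7.19%) and 1 above (7.01%), and testis 4 of 57 below (7.37%) and 2 above (6.03%). Brown adipose tissue had 6 of 69 below (5.92%) and 3 above (5.84%).

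Complex I takes up electrons from NADH through a flavin and a row of iron-sulphur centres in its matrix arm and pumps protons in its membrane arm. Its median estimate was -0.34 in skeletal muscle (21 of 28 tested members below 0), -0.15 in heart (24 of 29) and -0.30 in spleen (21 of 26). It was -0.11 in lung, -0.08 in brown adipose tissue and 0.03 in testis, where 17 of 29 members were above 0. Testis held 5 of the complex I members at an unadjusted p under 0.05, and 4 of these were positive, of 5 positive among all members there (4.18% of all rows).

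In testis, Ndufv2, a core iron-sulphur subunit of the matrix arm, read 1.31, 1.20 and 1.62 on the 3 arrays that measured it. All 3 values were high, and the estimate was 1.24 ± 0.32 (SE) with a limma adjusted p of 0.266. Ndufb11, an accessory subunit of the membrane arm, read 0.71, 1.71 and 0.98 on replicates 2 to 4, with an estimate of 1.52 ± 0.35 and an adjusted p of 0.215. Ndufb5 read 3.29, 0.05 and 1.97 on replicates 1, 3 and 4, so that 1 of its 3 values was near 0, and its estimate of 1.59 ± 0.43 was the highest of complex I in testis. Ndufb10 was high on replicate 4 alone, with values of -0.38, -0.23, 0.33 and 1.79, and without that array its estimate was -0.0034. Ndufa3 was low on replicate 3 alone at -1.73, and its estimate moved from -0.62 to 0.0043 without it.

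In skeletal muscle Ndufv1, which carries the flavin and the NADH site, read 1.15, 1.57, 0.32 and -1.12 and so took both signs (estimate 0.74 ± 0.32, limma adjusted p = 0.337). Ndufa1, a small membrane-arm subunit, had the highest muscle estimate of the complex at 1.85 ± 0.93, from values of 0.56, 3.64, 3.05 and -0.70. Ndufa2, an accessory subunit of the matrix arm, was low on all 4 arrays at -0.39, -0.14, -0.65 and -2.56 (estimate -0.64 ± 0.30). The same gene was low on all 4 spleen arrays, at -0.68, -0.17, -0.63 and -1.83 (estimate -0.77 ± 0.32). In heart Ndufs4, an accessory matrix-arm subunit, read -0.16, -0.25, -0.23 and -1.05, all below 0, with an estimate of -0.50 ± 0.18 and an adjusted p of 0.427. The Ndufs4 values average 2 probes with heart means of -0.83 and -0.16. With single heart arrays left out, the Ndufs4 estimate ranged from -0.60 to -0.22. Ndufs3, a core subunit, read 0.12, -1.30, -1.37 and -0.74 in lung (estimate -0.71 ± 0.31).

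Spleen also gave Ndufs6, an accessory subunit of the matrix arm, at -0.88 ± 0.38 and Ndufb4 of the membrane arm at -1.31 ± 0.57. Ndufb4 rests there on 3 arrays, at -0.51, 0.35 and -4.85, and only the last is far from 0. In brown adipose tissue Ndufv3, an accessory subunit beside the flavin site, read 0.15, 0.17, 0.14 and 1.44 (estimate 0.37 ± 0.17), all above 0. Ndufs1, the largest core iron-sulphur subunit, was the lowest of the members below 0 on all 4 brown adipose arrays, at -0.23, -0.09, -0.44 and -0.43 (estimate -0.29 ± 0.14). All 4 tested assembly factors were above 0 in spleen and in testis, with medians of 0.68 and 0.34, beside medians of -0.30 and 0.03 for the subunits of complex I. This difference was not tested. The highest of them in spleen was Ndufaf5 at 1.38 ± 0.74, which was carried by replicate 1, with its other values at -0.57 and 0.58.

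Complex II, succinate dehydrogenase, also works in the citric acid cycle. Its flavoprotein Sdha and iron-sulphur subunit Sdhb sit on the membrane anchors Sdhc and Sdhd. All 4 were below 0 in heart, with estimates of -0.36 ± 0.21 for Sdha, -0.67 ± 0.53 for Sdhb, -0.13 ± 0.18 for Sdhc and -0.14 ± 0.20 for Sdhd, each with a 95% interval that includes 0. In skeletal muscle Sdhc went the other way from the rest at 1.10 ± 0.39 (limma adjusted p = 0.207), with array values of 1.18, 2.13, 1.02 and -1.08. There Sdha read -0.68, 0.41, -0.49 and -1.96. The groups of arrays overlapped in sign for both genes, and all 3 of the complex II members tested in testis lay between 0.08 and 0.17.

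Complex III hands electrons from ubiquinol to cytochrome c, through the Rieske iron-sulphur protein Uqcrfs1 and cytochrome c1 (Cyc1). Its median was lowest in skeletal muscle, at -0.64 over 6 tested members. On replicates 1 to 3 its array medians there were -0.55, -0.44 and -0.41, so this complex was below 0 on all 4 muscle arrays, and the fourth stood at -1.85. Uqcrq, a small subunit of the membrane part, had the lowest estimate at -1.06 ± 0.59. Its mean over 3 probes was below 0 on all 4 arrays (-1.29, -1.71, -0.41 and -0.89). The probes differed, with muscle means from -2.33 to -0.56. Probe 3 read 0.458 on replicate 1 and probe 2 read -0.003 on replicate 3. The core subunit Uqcrc1 went the other way at 0.77 ± 0.53. All 8 members were below 0 in heart, where the core subunit Uqcrc2 read -0.34, -0.30, -0.24 and -0.19, the narrowest range of the complex (estimate -0.26 ± 0.13, limma adjusted p = 0.719). In lung Cyc1 read 1.88, -1.04 and 3.22 on 3 arrays (estimate 1.38 ± 0.61), with both signs in the Cy3 orientation.

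Complex IV, cytochrome c oxidase, reduces oxygen, and its nuclear subunits surround a core encoded by mitochondrial DNA. Its median was -0.27 in skeletal muscle, -0.15 in heart, -0.36 in spleen, -0.15 in lung, -0.02 in brown adipose tissue and 0.02 in testis. Cox6c, a small transmembrane subunit, was low on all 4 muscle arrays at -0.62, -0.38, -0.63 and -1.98 (estimate -0.69 ± 0.30, limma adjusted p = 0.343). The muscle estimate of Cox7c was lower, at -1.56 ± 0.83, from -1.44, -0.18 and -2.45 on 3 arrays. Cox4i1, the largest nuclear subunit, read -0.03, 0.57, -0.87 and -1.96 in muscle and 0.11, 0.09, -0.39 and -0.63 in heart. In both organs its Cy5 arrays lay above its Cy3 arrays.

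Several subunits of complex IV come as paralogues used in different tissues, and these pairs were compared side by side. Cox6a1, the widespread form, read -0.12, -0.31, 0.35 and -3.08 in skeletal muscle, and Cox6a2, the form of heart and skeletal muscle, read 1.53, -1.11, 1.23 and 1.03 there. The Cox6a1 values average 2 probes whose muscle means have opposite signs and lie 2.79 apart, so they describe neither probe. Cox6a2 had the highest muscle estimate of complex IV, at 0.89 ± 0.70, and was measured on 13 of 24 arrays. Cox6b2, the testis form, stayed near 0 in testis at 0.23, -0.02, -0.17 and -0.43, beside 0.17, 0.14, -0.16 and -0.17 for Cox6b1. In lung Cox6b2 read 0.30, 2.71 and 1.17 on 3 arrays (estimate 1.09 ± 0.41, limma adjusted p = 0.603).

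Cox7b2, another testis form, read -0.02, 0.06, 0.03 and -0.08 in testis, the least spread of any paralogue there. Cox8b, the form of muscle and brown fat, read 0.34, 0.68, -0.20 and 0.33 in brown adipose tissue and had the highest estimate of complex IV in that organ at 0.29 ± 0.23. Cox8a was measured on 10 of 24 arrays and Cox7a2 on 13, too few to place them beside their muscle forms in most organs. Cox8c, the third form of that subunit, was the lowest of complex IV in testis at -0.43 ± 0.50. No difference between paralogues was tested.

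Complex V makes ATP, with a catalytic head (Atp5a1, Atp5b, Atp5c1, Atp5d, Atp5e), a ring of c subunits (Atp5g3), a peripheral stalk (Atp5h, Atp5j, Atp5o, Atp5pb) and small membrane subunits (Atp5j2, Atp5k, Atp5l, Atp5md, Atp5mpl). Its muscle median was -0.50, with 10 of 14 tested members below 0 (71.4%, against 48.8% of all rows). At an unadjusted p under 0.05 there were 4 (28.6%, against 11.7% of all rows), 3 of them lower and 1 higher. The heart median was -0.13 with 13 of 15 below 0, and spleen gave -0.39 with 11 of 13.

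Atp5l, subunit g of the membrane part, had the lowest adjusted p of any member in skeletal muscle. It read -0.84, -0.24, -1.48 and -2.14 there, low on all 4 arrays and lower on both Cy3 arrays. The estimate was -1.08 ± 0.33 (SE) with a limma adjusted p of 0.113. It passed at 0.019 when all arrays were given 1 spread and at 0.0323 without centring. Its 2 probes had muscle means of -1.27 and -1.08. Averaged over both probes, Atp5l read -0.19, 0.05, -0.09 and -1.66 in spleen, where replicate 4 alone was low, -0.14, -0.35, -0.24 and -0.34 in lung and 0.06, 0.01, -0.43 and -0.33 in heart.

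Atp5g3, the c-ring subunit whose promoter is shown above, read -1.24, -0.13, -0.57 and -4.01 in muscle, all below 0, with an estimate of -1.07 ± 0.48. In heart it read 0.09, 0.01, -0.28 and -0.27, and in testis 0.34, 0.39, -0.07 and -0.14, above 0 on the Cy5 arrays and below it on the Cy3 arrays in both. Atp5j of the peripheral stalk read -0.38, -0.17, -0.73 and -2.55 in muscle (estimate -0.65 ± 0.31). Atp5d, the delta subunit of the head, was high on the Cy5 arrays alone, at 1.80 and 2.01 against -0.22 and -0.04. Its estimate was 0.99 ± 0.36 with a limma adjusted p of 0.226, and without muscle replicate 3 it was 1.63 with an adjusted p of 0.0263, the only member past the threshold in muscle in that fit.

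In heart Atp5h, a peripheral stalk subunit, read -0.63, -3.88, -2.22 and -1.12, below 0 on every array. Its estimate of -1.78 ± 0.35 had the lowest adjusted p of any member in an organ, at 0.0597. It passed at 0.0448 without centring and at 0.042 without a dye term, and stood at 0.109 without replicate 2, the array with the skeletal muscle label. The 4 values do not come from the same probes, since probes 1 and 2 gave replicate 1 (-0.13 and -1.13) and probe 3 alone gave replicates 2 to 4. In testis probe 3 read 1.46, -1.88 and 1.81. The value in heart therefore rests on a probe that was measured on 3 heart arrays.

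Atp5b, the catalytic beta subunit, read 3.17, -0.17, 0.78 and 0.55 in lung, carried mainly by replicate 1 (estimate 1.35 ± 0.42, limma adjusted p = 0.392). Its spleen values were 1.67, -0.18 and 2.32 on 3 arrays and gave 1.16 ± 0.74. Atp5md, a small membrane subunit, was low on all 4 spleen arrays at -1.34, -0.13, -0.45 and -1.54 (estimate -0.91 ± 0.34). Atp5mpl, a small proteolipid of the membrane part, read 0.85, -0.42, 0.05 and 1.17 in testis (estimate 0.52 ± 0.22). In brown adipose tissue no complex V estimate lay outside -0.21 to 0.18.

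**Figure D3:**
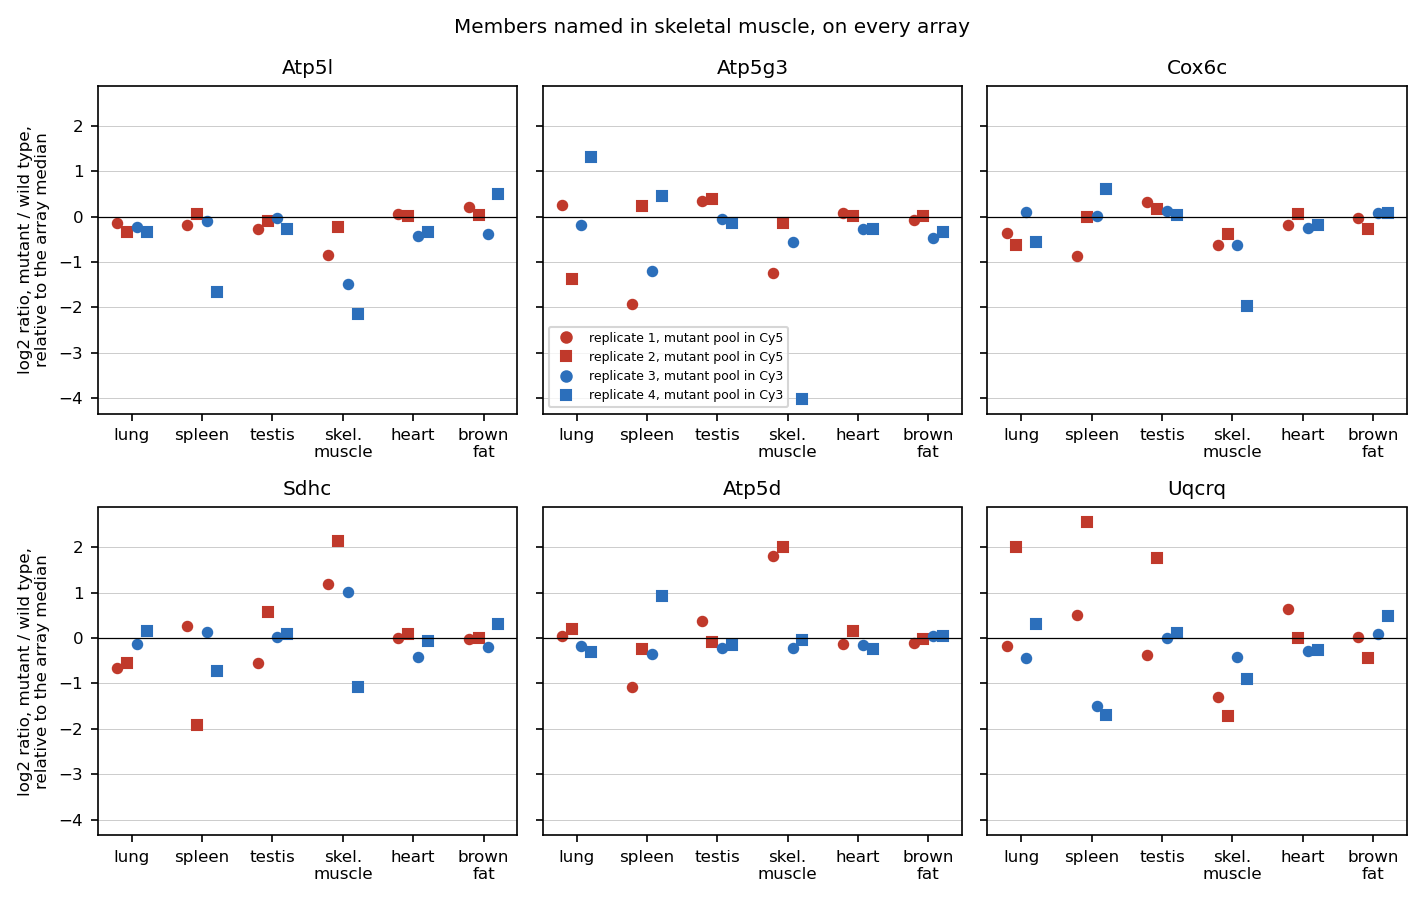
Each point is 1 array's log2 ratio of mutant over wild type relative to the array median, for 6 members by organ, with red for the mutant pool in Cy5 and blue for Cy3. In skeletal muscle Atp5l, Atp5g3, Cox6c and Uqcrq lie below 0 on all 4 arrays, Sdhc is above 0 on 3, and Atp5d is above 0 on the Cy5 arrays only. Values of Atp5l and Uqcrq are means of their 2 and 3 probes.

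Whether the organs differ was tested directly over the 49 members tested in all 6. By limma's F test 0 of 49 passed (0.768% of all rows did), with 2 at an unadjusted p under 0.05 (9.03% of all rows). These were Atp5h, at an adjusted p of 0.284, and Atp5b, at 0.346. Averaged over the 6 organs, 0 of 49 members passed by limma (0% of 7553 rows did), with a smallest adjusted p of 0.725 and 4 at an unadjusted p under 0.05 (5.51% of all rows). The median over members was -0.20, against 0.02 for all rows. The organ mean was below 0 in all 6 organs for 9 of the 49 members (3.06% of all rows) and above 0 in all for 0 of them (2.86%). Those 9, named after their values were seen, were Atp5j, Atp5o, Atp5pb, Cox6b1, Ndufa8, Ndufs3, Ndufs4, Uqcr11 and Uqcrc2. They come from every complex but II, of which only Sdha and Sdhc were among the 49.

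The dye orientation itself was tested as 1 term shared by all organs, the value with the mutant in Cy5 minus that with it in Cy3. A true difference between the pools has the same sign in both orientations and so does not enter this term. Of 79 members 1 passed at an adjusted p of 0.05 (1.16% of all rows did, 0.18% in the same direction), which was Uqcrfs1. Another 12 had an unadjusted p under 0.05, and 11 of these were positive, against 10.3% of all rows negative and 5.87% positive at that level. The median over members was 0.07 with 51 of 79 above 0, while the median over all rows was -0.06 with 54.4% below 0.

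Uqcrfs1, the Rieske protein of complex III, had a dye term of 0.71 ± 0.15 (SE) with a limma adjusted p of 0.0246. Both Cy5 arrays lay above both Cy3 arrays in 6 of 6 organs. In lung the values were 0.13 and 0.05 with the mutant in Cy5 and -0.91 and -1.27 with it in Cy3, and in heart 0.22 and 0.20 against -0.81 and -0.30. Of the 3630 rows measured on all arrays, 10 (0.275%) were ordered so in all 6 organs. The call was lost when heart replicate 1, 2 or 3 or brown adipose replicate 2 or 3 was left out, with adjusted p from 0.051 to 0.0624, and with 1 spread for all arrays (0.0666). The organ estimates of Uqcrfs1 in muscle (-0.71 ± 0.31) and lung (-0.49 ± 0.23) stand beside this dye term.

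Of the 36 members measured on all arrays, 7 had both Cy5 arrays above both Cy3 arrays in at least 4 organs (19.4%, against 6.31% of all rows). These 7 were Atp5d, Cox4i1, Cox6b1, Cox7a1, Ndufa2, Ndufa7 and Uqcrfs1. The reverse order in at least 4 organs was seen in 0 members and in 3.44% of all rows. The dye term of Cox5b was 0.55 ± 0.17 (limma adjusted p = 0.104) and that of Cox5a 0.69 ± 0.24. Ndufa6 was the 1 member with a negative term among those with an unadjusted p under 0.05, at -2.25 ± 0.70.

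Cox7a1, the muscle and brown fat form of subunit VIIa, has 2 probes that differed in this. With probe 1 the Cy5 arrays lay above the Cy3 arrays in 6 of 6 organs, as in brown adipose tissue at 0.13 and 0.08 against -0.27 and -0.44. With probe 2 they did so in 0 of 6. Only with 1 probe per symbol in place of the mean did Cox7a1 pass for the dye term, at 0.53 and an adjusted p of 0.0366. More widely, 23 members have several probes. In 53 of 111 pairs of a member and an organ with 2 or more measured probes the probe means had opposite signs, and in 24 they differed by more than 1 log2 unit.

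**Figure D4:**
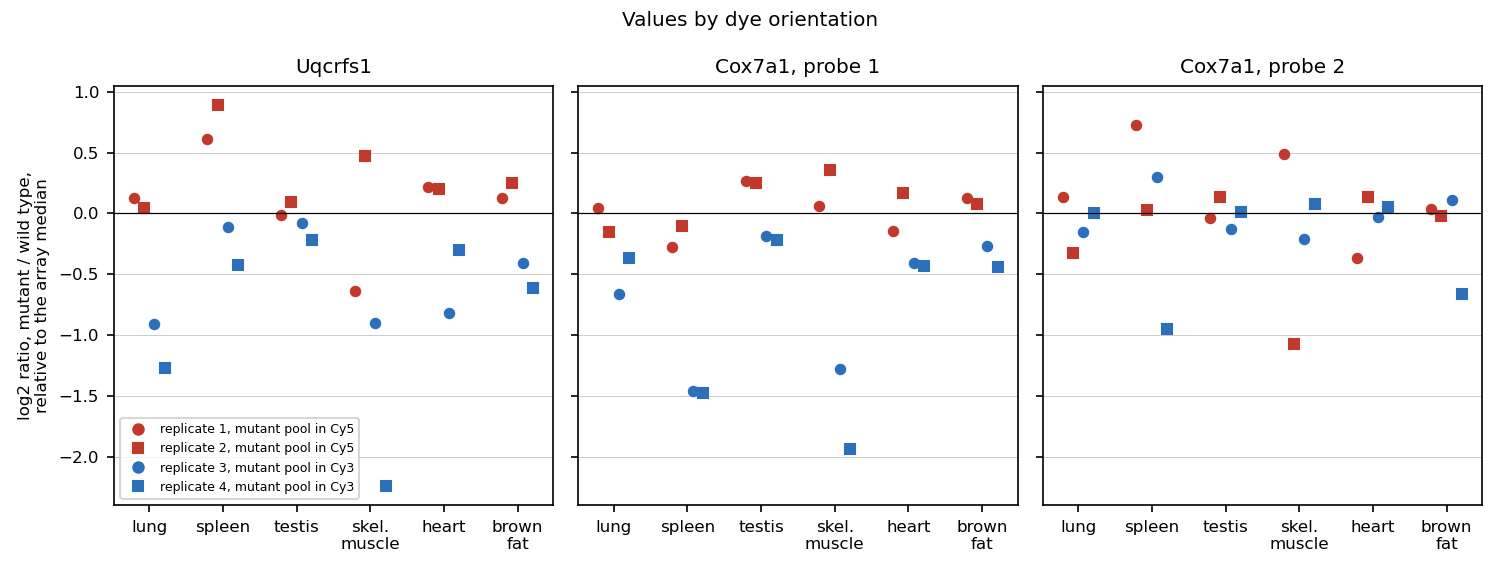
Each point is 1 array's log2 ratio of mutant over wild type relative to the array median, for Uqcrfs1 and both probes of Cox7a1, with red for the mutant pool in Cy5 and blue for Cy3. In the panels of Uqcrfs1 and Cox7a1 probe 1 every red point lies above the blue points of its organ, and in the panel of probe 2 they mix.

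Genes that work beside the chain were taken from fixed lists. Of 19 assembly factors outside the naming rule that were tested in skeletal muscle 1 passed, where 2.35% of all rows did, and 0 passed in the other organs. The list's muscle median was 0.08. The gene was Ecsit at 1.40 ± 0.33 (limma adjusted p = 0.0245), an assembly factor of complex I also known from immune signalling. The rest of that list, the electron and nucleotide carriers, ubiquinone synthesis, the citric acid cycle with pyruvate dehydrogenase and the mitochondrial gene regulators had 0 genes past the threshold in any organ. In heart the carriers had a median of -0.21 over 11 tested genes and the citric acid cycle -0.20 over 15, while the regulators had 0.03 over 10. On replicate 4 of skeletal muscle the carriers stood at -1.92 and the citric acid cycle at -1.24, with the regulators at 0.78.

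Markers of other cells moved in some of these libraries. Relative to the array median, the skeletal muscle markers had medians of 0.93, 1.30, 0.39 and -1.08 on the 4 muscle arrays. The heart and slow muscle markers had 0.10, 0.50, 0.12 and -1.55. Both were lowest on the array where the members were lowest after centring. Markers and members share the subtracted array median, 0.672 on replicate 4 against -0.435, -0.777 and -0.008 on replicates 1 to 3. The match of arrays therefore depends in part on the centring and was not tested. In muscle, where 2.35% of all rows passed, Ryr1 and Neb passed as higher among 16 tested muscle markers (median 0.71). From the other lists Cidea passed as higher among 6 brown fat markers (median -0.10), Slc4a1 as higher among 3 red cell markers (median -0.39) and Ccr7 as lower among 5 lymphocyte markers (median -0.41). In heart the skeletal muscle markers had a median of 0.02 over 16 tested and 0 passed. On heart replicate 2, the array whose wild-type channel is labelled skeletal muscle, these markers had a median of 0.02 and the heart and slow muscle markers one of -0.03. In brown adipose tissue 12 of 17 tested skeletal muscle markers were higher at an unadjusted p under 0.05, with a median of 0.60. At that level 5.31% of all rows were found there, in both directions together. Past the adjusted threshold there were 0 of these markers.

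In lung 5 of 15 skeletal muscle markers passed as lower with a median of -1.42, while 0.113% of all rows passed in lung. Of 7 tested heart and slow muscle markers there, Myl2 alone passed, as higher, in a list with a median of -0.20. Of 10 exocrine pancreas markers Ctrl alone passed, as lower, in a list with a median of -0.23. In spleen 9 of 12 exocrine pancreas markers passed as lower, with a median of -4.06, while 0.214% of all rows passed in spleen. The white fat, lung epithelium, germ cell and Leydig cell lists had 0 genes past the threshold in any organ. The part of these shifts in the members' values was not tested, and in whole organs a smaller share of a cell type cannot be told apart from less RNA per cell.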

How the data were processed

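The authors deposited 1 log2 ratio per probe and array (log base and direction inferred here, with direction likely but not stated), and no source used here names the scanner, background correction or normalization behind them. Each labelling used 20 µg of total RNA, per the labels' protocols. Of 392774 values, 4874 (1.241%) with sizes above 12 formed a separate mode and were treated as missing, 16 of them in members. Each array was centred on its median, and probes of the same single symbol were averaged (16148 rows). Tests in an organ needed at most 1 of 4 arrays missing and both dye orientations present, so a member on 3 arrays is estimated from those.

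All 24 arrays and all rows were fitted together with limma 3.58.1 in R 4.3.3 (lmFit with array weights, then eBayes), with 6 organ terms and 1 dye term, and p-values were adjusted by Benjamini-Hochberg over the rows of each term (threshold 0.05). The fit was tested on simulated data. Organs were compared with each other by limma's F test, and organ means against 0 in a fit of the 6 means. Array weights ranged from 0.165 (skeletal muscle replicate 4) to 4.11 (brown adipose tissue replicate 2). Members had 2249 of 2616 possible probe values, with 59 to 78 of the 79 genes measured on an array, and 36 measured on all 24 arrays. The number of arrays limits the precision.

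All 79 symbols matched RefSeq by Entrez number. Named were Nr4a1, members past the threshold, the highest and lowest member per complex and organ, paralogue sets, and up to 3 members of 1 sign on all arrays of an organ, with exceptions stated in the text. From the extremes only those with an unadjusted p under 0.05, or that show a pattern, are described. The members, lists and array weights were chosen with earlier results of these data known. Alternatives were array spread, centring, scaling, dye terms, replicate block, kept separate mode, filters, turned arrays, 1 probe per symbol, organs fitted alone and single arrays left out.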

Additional observations from a re-analysis of the deposited data

Results flagged for a closer look

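A total of 69 sets were listed for a search by Dixon's test at the 95% level, to find an array far from its others. They were the medians of all members or of a complex in an organ, and members at an unadjusted p under 0.05. The test was made for sets of 4 arrays. Some listed members, such as Cyc1 in lung and Ndufb4 in spleen, lack an array, so fewer than 69 sets were searched. In the searched sets 6 far arrays were found. Medians over all members overlap those by complex, so the chance rate of about 1 in 20 is no exact yardstick for this count. In testis the complex II median stood apart on replicate 2 at 0.564 and the complex V median on replicate 1 at 0.3005. In skeletal muscle the complex III median on replicate 4 was -1.845, and Cox6c on the same array was -1.98. Ndufs4 stood apart on heart replicate 4 at -1.054 and Ndufv3 on brown adipose replicate 4 at 1.44. Of these 6, 4 lie on a replicate 4.

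Another 3 members were below the array median on every array of skeletal muscle and above it on every array of another organ. Cox6c had estimates of -0.69 in muscle and 0.084 in testis. Ndufb4 had -0.45 in muscle and 0.37 in lung. Ndufv3 had -0.45 in muscle and 0.37 in brown adipose tissue. The search did not cover the other members, and among those such reversals also occur outside muscle. Ndufb8 was below on all 4 heart arrays and above on all 4 testis arrays. Ndufb3 was above on all 4 lung arrays and below on all 4 testis arrays. The difference between these organ pairs was not tested, and the F test over all 6 organs gave limma adjusted p of 0.862 for Cox6c, 0.855 for Ndufb4 and 0.873 for Ndufv3.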

How the results depend on the processing

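Of 1743 values recomputed under an alternative, 1629 kept their direction and side of the threshold (or moved by less than the spread of arrays). The cause of the changes below was not tested. The count of members past the threshold in skeletal muscle became 1 with 1 spread for all arrays and without centring (Atp5l in both), and in heart 1 without centring and without a dye term (Atp5h in both). The dye count of 1 became 0 with 1 spread for all arrays and in each organ fitted alone, and 2 with 1 probe per symbol (Cox7a1 and Uqcrfs1). Leaving out single arrays gave 0 to 1 in skeletal muscle and 0 to 1 for the dye term, and 0 in every other organ, between organs and over organs.

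Medians moved as follows. Without centring, complex I assembly factors stood at -0.43 in muscle, and in brown adipose tissue all members at -0.14, complex I at -0.16 and complex V at -0.086. The median of all rows was then itself -0.24 in muscle and -0.07 in brown adipose tissue. With centring and scaling, complex IV in spleen was -0.22, all members in testis 0.0062 and assembly factors in brown adipose tissue -0.18. The testis median of all members was -0.025 without a dye term, and 0.006 with a dye term for each organ or organs fitted alone. With all 4 arrays required, muscle assembly factors were at -0.50 and complex II at 0.29, and with 1 probe per symbol complex IV in spleen was at -0.52.

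With single arrays left out the medians ranged from -0.095 to 0.018 (complex V) and -0.098 to -0.0034 (all) in brown adipose tissue, from -0.12 to -0.043 (complex I), -0.32 to 0.23 (III) and -0.22 to 0.0013 (V) in lung, from -0.57 to 0.67 for complex II in muscle, from -0.28 to -0.22 for complex IV in spleen and from -0.0062 to 0.062 for all members in testis.

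Were the Cy3 arrays turned, medians would be 0.056 (all), 0.069 (I), -0.086 (assembly) and 0.23 (IV) in lung, -0.082 (IV) in spleen, -0.038 (all), -0.40 (assembly) and -0.10 (III) in testis, 0.36 (all), 0.37 (I), 0.12 (assembly), 0.33 (II), 0.34 (III) and 0.40 (V) in muscle, 0.13 (all), 0.089 (I), 0.18 (assembly), 0.24 (II), 0.12 (IV) and 0.14 (V) in heart, and 0.011 (all) and -0.014 (I) in brown adipose tissue. Single values that would change sign are Cyc1 -0.054, Ndufs3 0.34, Uqcrfs1 0.60 and Nr4a1 0.16 in lung, Ndufa2 0.25, Ndufb4 1.13 and Nr4a1 0.037 in spleen, Atp5mpl -0.45, Ndufa3 0.50, Ndufb10 -0.97, Ndufb11 -0.97, Ndufb5 -0.26 and Ndufv2 -1.09 in testis, Atp5g3 0.21, Atp5j 0.36, Atp5l 0.28, Cox6c 0.10, Ndufa2 0.35 and Uqcrfs1 0.43 in muscle, Atp5h 0.22 and Ndufs4 0.27 in heart, and Ndufv3 -0.17 in brown adipose tissue. That setting also takes the Nr4a1 calls away. Nr4a1 in testis was 1.80 with the separate mode kept. With single arrays left out, Ndufa3 in testis ranged from -0.90 to 0.0043 and Ndufb10 from -0.0034 to 1.19.

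The replicate block in place of the dye term left 0 members past the threshold in each organ and 0 differing between organs, and took away the Nr4a1 call in muscle (adjusted p 0.0656). Deviations from organ means correlated at a median of 0.043 between same-numbered arrays of different organs and of 0.041 between arrays of another number but the same dye orientation, so the numbers pair the arrays no further than the dye does.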
